A study of Mus musculus with 48 samples.

Results

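The comparison described here set the skin of mice given an antibody against the interleukin-15 (IL-15) receptor beta chain against the skin of mice given phosphate-buffered saline (PBS), both at week 13 of a prevention study of alopecia areata, the autoimmune loss of hair. The members were the 3 arrays titled il15rb and the 3 arrays titled PBS ip (intraperitoneal) at week 13, 6 of the 48 arrays in the series. The arrays were taken by their titles and not by their values, but the comparison itself was chosen with earlier results of these data known.

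Each array held RNA from C3H/HeJ mouse skin on an Affymetrix expression array, and the series calls the arrays of a group biological replicates. The antibody arrays carry the agent name il15rb in their titles and the treatment label IL15, and the PBS arrays carry the label of an intraperitoneal PBS injection. The titles give week 13, where the labels give 12/13 weeks of treatment. The pairing of the antibody with PBS ip rests on what is known of the study, in which C3H/HeJ mice received skin grafts from affected animals and the blocking antibody was injected. Dose, age and sex are not given in the sources used here. Beside them were used 3 antibody and 4 PBS ip arrays of week 5, and at week 13 3 arrays each of jak3i (a JAK inhibitor, known of the study as tofacitinib), jak12i (ruxolitinib, which blocks JAK1 and JAK2), PBS by pump and PBS by gavage.

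IL-15 is a cytokine presented on the surface of cells that carry its receptor alpha chain (Il15ra). It signals in lymphocytes through the beta chain (Il2rb), which the interleukin-2 receptor shares, and the common gamma chain, whose Janus kinases activate STAT5. This signal maintains natural killer cells and memory CD8 T cells. In alopecia areata, CD8 T cells that carry the receptor NKG2D (Klrk1) gather around growing hair follicles, and interferon gamma is prominent in the affected skin.

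Values are log2 signals of 1 probe set per gene for 13650 genes, differences are antibody minus PBS ip in log2 units ± standard error (SE), and a gene was called at an adjusted p of at most 0.05 in limma, a linear model with moderated spread. The words rose and fell are used for called genes, and overlap between the antibody and PBS ip arrays is stated for the genes named, or shown by their values. How many of all called genes overlap is not given here, so a count of overlaps does not set a list apart. A mean below 5.38 (the highest value that any week 13 array had for its 25th percentile) was taken as near background, and the fold is then a lower bound, written as at least. The spread behind each SE and p was pooled over all 13 groups of the fit. It can be smaller than the spread among the antibody and PBS ip arrays, as where the PBS ip values printed for a gene lie far apart. On these 6 arrays alone 816 genes were called, against 3512 with the pooled spread. Precision is limited by the few arrays, and an exact permutation test of 3 against 3 arrays cannot give a two-sided p below 0.1. In whole skin, fewer cells of a type and less RNA per cell cannot be told apart.

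The basal keratin genes Krt5 and Krt14 lay between 12.74 and 13.72 in all 6 arrays, as is known for skin. The PBS ip arrays were less alike than the antibody arrays. PBS ip replicate 2 correlated at 0.983 to 0.985 with the antibody arrays over all probe sets and at 0.973 and 0.977 with the other PBS ip arrays, which correlated with each other at 0.990. Its label was kept, and gene lists differed in where this array stood. All 12 tested cytotoxic lymphocyte genes were above every antibody array in it too. Its mean levels of hair shaft keratin genes (7.26) and of type I interferon response genes (8.61) lay within the range of the antibody arrays. Whether labels were exchanged was not tested. The level of 18 skeletal muscle genes, a mean over the list, was 13.24, 12.85 and 13.33 in antibody arrays, against 10.12, 12.51 and 7.11 in PBS ip arrays, and ran between 7.39 and 12.62 in the 6 PBS pump and gavage arrays. PBS ip replicate 3 therefore had the lowest muscle level of these arrays, and results are also given without it.

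Limma called 3512 of the 13650 genes, 25.7%, with 2059 higher (15.1%) and 1453 lower (10.6%) in antibody skin. The median difference over all genes was 0.01. Without PBS ip replicate 3, 1060 genes were higher (7.77%) and 752 lower (5.51%), and 1044 of the rises and 725 of the falls in the full comparison remained called in the same direction. Leaving out each of the other 5 arrays in turn gave 8.68% to 17.8% of genes higher and 6.22% to 14.2% lower. Against the 6 PBS pump and gavage arrays of the same week, 2799 genes were higher (20.5%) and 1562 lower (11.4%). Of the 3512 called genes, 1650 were called in the same direction in both checks, 1003 higher and 647 lower.

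Expression of the targeted receptor chain fell, while the cytokine and its alpha chain did not pass the test. Il2rb had 5.96, 5.88 and 5.73 in antibody arrays, against 7.41, 7.17 and 7.63 in PBS ip arrays. The groups were well apart, and the gene fell by 1.55 ± 0.15 (2.92-fold lower, adjusted p = 4.06e-09). RNA for the chain that the antibody binds does not report whether the protein was blocked. Il15 had 8.17, 8.28 and 8.52 in antibody arrays, against 7.87, 8.47 and 7.97 in PBS ip arrays, and Il15ra had 9.12, 9.24 and 9.18 in antibody arrays, against 9.08, 9.34 and 9.23 in PBS ip arrays. Both overlapped between groups and did not pass (difference 0.22 ± 0.17, adjusted p = 0.373, and -0.04 ± 0.11, adjusted p = 0.836).

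Of 14 tested genes of the IL-15 receptor and its signalling, 1 rose and 2 fell, with a median of -0.03, where 15.1% of all genes were higher and 10.6% lower. Stat5b, a transcription factor that the receptor activates, rose by 0.50 ± 0.14 (adjusted p = 0.00677). Its close relative Stat5a differed by 0.50 ± 0.20 (adjusted p = 0.0634) and the receptor-bound kinase gene Jak1 by 0.21 ± 0.11 (adjusted p = 0.168), and neither passed. Socs1, a feedback inhibitor of cytokine receptors, fell by 0.63 ± 0.17 (adjusted p = 0.00477). The counts were the same without PBS ip replicate 3, and Il2rb then differed by -1.43 ± 0.16.

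Genes of T cells and of cytotoxic lymphocytes were lower in antibody skin. All 12 tested cytotoxic lymphocyte genes fell, with a median of -2.18, and 12 of 13 T cell receptor and coreceptor genes fell, with a median of -0.88, where 10.6% of all genes were called lower. Without PBS ip replicate 3, the counts were 11 of 12 and 8 of 13, where 5.51% of all genes were called lower. Against PBS pump and gavage they were 12 of 12 and 10 of 13, where 11.4% of all genes were called lower. Without PBS ip replicate 2, the array nearest to the antibody group, they were 11 of 12 and 11 of 13, with 1944 of 13650 genes called lower.

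Gzma, a granule protease of killer lymphocytes, had 5.09, 4.82 and 4.72 in antibody arrays, against 10.20, 8.13 and 10.97 in PBS ip arrays. Every antibody array was near background, and the weakest PBS ip array was replicate 2. Gzma fell by 4.89 ± 0.46 (at least 29.8-fold lower, adjusted p = 4.06e-09). Gzmb, the protease that starts death in target cells, had 6.43, 6.95 and 6.18 in antibody arrays, against 10.56, 8.07 and 11.29 in PBS ip arrays and fell by 3.45 ± 0.40 (10.9-fold lower, adjusted p = 1.81e-07). The separation of the Gzmb groups narrowed to the gap between antibody replicate 2 and PBS ip replicate 2. The granule membrane gene Nkg7 fell by 2.39 ± 0.29 (5.25-fold lower), the protease gene Ctsw by 2.11 ± 0.21 (4.33-fold lower) and the pore-forming perforin gene Prf1 by 1.13 ± 0.20 (2.19-fold lower).

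Of the receptors that such cells use, Klrk1, which encodes NKG2D, had 5.09, 5.50 and 5.26 in antibody arrays, against 7.35, 6.16 and 7.55 in PBS ip arrays, and it fell by 1.73 ± 0.25 (at least 3.32-fold lower, adjusted p = 6.45e-06). Klrd1, whose protein pairs with other killer cell receptors as CD94, fell by 2.68 ± 0.28 (6.39-fold lower). The antibody mean was near background for Klrk1 and somewhat above it for Klrd1.

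Cd8a, the coreceptor gene of cytotoxic T cells, had 7.18, 6.66 and 6.84 in antibody arrays, against 9.03, 8.56 and 9.60 in PBS ip arrays. The lowest PBS ip array stood above every antibody array, and Cd8a fell by 2.17 ± 0.20 (4.49-fold lower, adjusted p = 4.06e-09). Its partner chain gene Cd8b1 fell by 1.80 ± 0.22 (at least 3.48-fold lower), and Cd3d and Cd3g, chains of the T cell receptor complex, fell by 1.59 ± 0.25 and 1.67 ± 0.25.

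**Figure D1:**
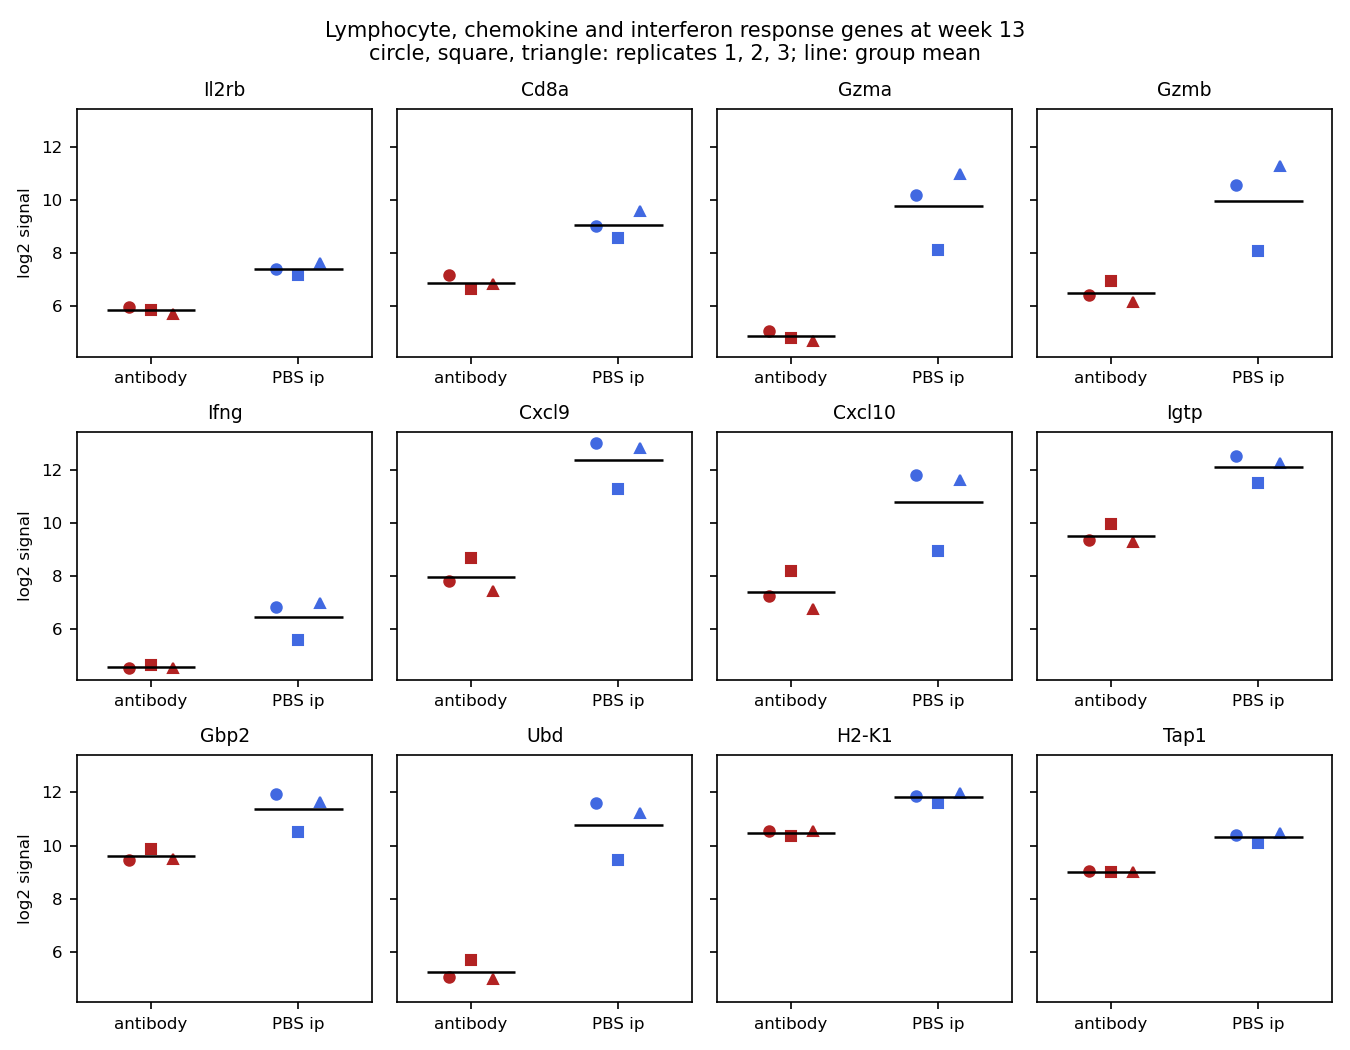
Log2 signal of 12 lymphocyte, chemokine and interferon response genes at week 13, with 1 point per array (circle, square and triangle for replicates 1, 2 and 3), antibody in red on the left and PBS ip in blue on the right, and a line at each group mean. The antibody arrays lie below the PBS ip arrays in all 12 panels, and PBS ip replicate 2 (square) is the lowest of its group in every panel.

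Genes of T cells resident in skin fell as well. Of 7 tested skin homing and resident T cell genes, 5 fell and 1 rose, with a median of -0.68, where 10.6% of all genes were lower and 15.1% higher. Without PBS ip replicate 3 the fall was called for 3, where 5.51% of all genes were lower. Without antibody replicate 3 it was also called for 3, where 6.56% were. Cxcr6, a chemokine receptor of tissue-resident T cells, had 6.70, 6.46 and 6.77 in antibody arrays, against 9.26, 8.92 and 9.76 in PBS ip arrays, and fell by 2.67 ± 0.34 (6.37-fold lower, adjusted p = 7.03e-07). Itgae, the CD103 integrin chain that binds epithelium, fell by 1.99 ± 0.27. The lymphocyte integrin chain gene Itgal fell by 2.002 ± 0.29, and Cxcr3, the receptor of the interferon-induced chemokines, fell by 0.68 ± 0.20. Of these, Cxcr3 did not pass without PBS ip replicate 3 (-0.54 ± 0.22, adjusted p = 0.0941).

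Among 10 checkpoint and regulatory T cell genes, 6 fell and 0 rose, where 10.6% of all genes were lower. Of these 1 overlapped between groups, Tnfrsf18, and without PBS ip replicate 3 the fall was called for 5 of 10, where 5.51% of all genes were lower. The inhibitory receptor genes Pdcd1 (PD-1) and Havcr2 fell by 1.04 ± 0.21 and 0.91 ± 0.18, and the costimulator gene Icos fell by 1.10 ± 0.14. The PD-1 ligand genes moved in the same direction. Cd274 had 8.34, 8.23 and 8.17 in antibody arrays, against 9.98, 9.27 and 9.69 in PBS ip arrays and fell by 1.40 ± 0.32 (adjusted p = 0.00131), and Pdcd1lg2 fell by 1.11 ± 0.20 (adjusted p = 0.000115).

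Chemokines that draw T cells were among the most reduced genes. Of 14 tested chemokine genes, 9 fell and 0 rose, with a median of -1.27, where 10.6% of all genes were lower, and the count was also 9 without PBS ip replicate 3, where 5.51% were. The 3 ligands of Cxcr3 were all low. Cxcl9 had 7.82, 8.67 and 7.43 in antibody arrays, against 13.000, 11.28 and 12.81 in PBS ip arrays and fell by 4.39 ± 0.74 (21.0-fold lower, adjusted p = 4.03e-05). Cxcl10 had 7.24, 8.19 and 6.78 in antibody arrays, against 11.80, 8.95 and 11.59 in PBS ip arrays and fell by 3.38 ± 0.47 (10.4-fold lower, adjusted p = 2.62e-06). Cxcl11 had 6.40, 7.68 and 5.99 in antibody arrays, against 10.87, 8.94 and 10.46 in PBS ip arrays and fell by 3.40 ± 0.46 (10.6-fold lower, adjusted p = 2.09e-06).

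Within the antibody group, replicate 2 was the highest for all 3 of these ligands, and within the PBS ip group replicate 2 was the lowest. For Cxcl10 these arrays came closest to each other. Ccl5, a chemokine that killer lymphocytes themselves make, had 6.74, 7.46 and 6.57 in antibody arrays, against 11.07, 9.85 and 11.89 in PBS ip arrays, and fell by 4.02 ± 0.51 (16.2-fold lower, adjusted p = 7.02e-07). Cxcl16, the ligand of Cxcr6, fell by 1.02 ± 0.15 (adjusted p = 6.74e-06).

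Interferon gamma itself and the factors that control its targets were lower. Ifng had 4.54, 4.66 and 4.55 in antibody arrays, against 6.83, 5.62 and 6.99 in PBS ip arrays, so that the antibody arrays were near background, and it fell by 1.89 ± 0.26 (at least 3.72-fold lower, adjusted p = 2.09e-06). Of 10 tested genes for interferon gamma and its regulators, 7 fell and 1 rose, with a median of -0.86, where 10.6% of all genes were lower. Irf1, a transcription factor that interferon gamma induces, had 9.35, 9.38 and 9.53 in antibody arrays, against 11.30, 10.64 and 11.10 in PBS ip arrays and fell by 1.60 ± 0.23 (adjusted p = 4.58e-06). Nlrc5 and Ciita, the activators of the MHC class I and class II genes, fell by 1.03 ± 0.20 and 0.54 ± 0.13, and Batf2 fell by 0.90 ± 0.18. The count of 7 was the same without PBS ip replicate 3, where 5.51% of all genes were lower.

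All 10 tested interferon-inducible GTPase genes, whose proteins attack the vacuoles of intracellular microbes, fell, with a median of -2.06. The fall was called for 7 of 10 without PBS ip replicate 3 and for 10 of 10 against PBS pump and gavage. There 5.51% and 11.4% of all genes were lower, and 10.6% were in the full comparison. With the muscle level of each array as a covariate it was called for 2 of 10, with a median of -1.36, where 4.48% of all genes were called lower. Igtp had 9.34, 9.95 and 9.27 in antibody arrays, against 12.50, 11.51 and 12.24 in PBS ip arrays and fell by 2.57 ± 0.63 (5.93-fold lower, adjusted p = 0.00286). Gbp2 had 9.45, 9.88 and 9.51 in antibody arrays, against 11.95, 10.51 and 11.63 in PBS ip arrays and fell by 1.75 ± 0.43 (3.37-fold lower, adjusted p = 0.00293). Gbp8, Iigp1 and Ifi47 fell by 3.47 ± 0.64, 2.59 ± 0.73 and 2.17 ± 0.43.

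The promoters of these genes are shown because the genes moved together and because their letters hold short motifs known from interferon-responsive promoters. The motifs searched were GAAANNGAAA, the core that interferon regulatory factors bind, and TTCNNNGAA, the core that STAT dimers bind, on both strands and with overlaps between them allowed, in windows of 300 bases around the gene start from RefSeq (GRCm38.p6). Below, the 250 bases before the gene start are printed 5′ to 3′ on the gene's strand, and capitals mark the motif matches.
Gbp2, chr3:142620413-142620662, plus strand: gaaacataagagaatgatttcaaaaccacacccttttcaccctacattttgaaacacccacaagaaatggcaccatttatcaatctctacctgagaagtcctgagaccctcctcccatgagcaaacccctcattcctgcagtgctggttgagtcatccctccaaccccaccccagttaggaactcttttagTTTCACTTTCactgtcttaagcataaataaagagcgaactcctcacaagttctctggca
Igtp, chr11:58199306-58199555, plus strand: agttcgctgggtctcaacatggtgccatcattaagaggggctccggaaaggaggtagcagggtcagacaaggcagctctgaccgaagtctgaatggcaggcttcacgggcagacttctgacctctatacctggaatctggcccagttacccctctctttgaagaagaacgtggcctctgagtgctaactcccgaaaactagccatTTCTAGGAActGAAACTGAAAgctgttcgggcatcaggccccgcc
Irgm2, chr11:58214727-58214976, plus strand: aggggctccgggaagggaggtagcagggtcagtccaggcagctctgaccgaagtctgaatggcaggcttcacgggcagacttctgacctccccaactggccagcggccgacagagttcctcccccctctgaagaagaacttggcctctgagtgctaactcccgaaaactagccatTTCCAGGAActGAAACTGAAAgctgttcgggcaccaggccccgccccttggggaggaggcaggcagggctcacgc
Irf1, chr11:53769764-53770013, plus strand: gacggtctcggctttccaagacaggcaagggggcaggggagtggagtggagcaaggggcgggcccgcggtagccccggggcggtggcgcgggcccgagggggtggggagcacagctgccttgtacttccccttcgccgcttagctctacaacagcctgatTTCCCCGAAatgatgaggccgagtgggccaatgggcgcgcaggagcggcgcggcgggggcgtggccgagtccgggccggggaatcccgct

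Irgm2, named after its values were seen, fell by 1.95 ± 0.62. In Igtp the TTCNNNGAA match begins at -45 and the GAAANNGAAA match at -34, and in Irgm2 they begin at -75 and -64, counted from the gene start, so that both genes hold them side by side. Gbp2 has a GAAANNGAAA match on the opposite strand at -59, and Irf1 has a TTCNNNGAA match at -90. The table holds another Irf1 start, whose 250 bases (chr11:53770223-53770472, plus strand) hold neither motif. Of the 7 tested GTPase genes with a window in the table, 6 held GAAANNGAAA (85.7%) and 3 held TTCNNNGAA (42.9%). Among the 10909 tested genes with a window, 3.56% held GAAANNGAAA and 8.35% held TTCNNNGAA. The type I interferon response genes held GAAANNGAAA in 10 of 16 windows (62.5%), the MHC class I genes in 3 of 11 (27.3%), the cytotoxic lymphocyte genes in 1 of 9 (11.1%) and the adipocyte genes in 0 of 8. A match is a description of the letters and not a mapped site.

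Genes known best as targets of type I interferon moved less. Of 23 tested, 10 fell and 0 rose, with a median of -0.61, where 10.6% of all genes were lower, and 6 of the 10 overlapped between groups. Without PBS ip replicate 3 the fall was called for 2 of 23 (8.7%), where 5.51% of all genes were lower. Without antibody replicate 1 it was called for 2 (8.7%), near the 8.22% of all genes. It was called for 3 without PBS ip replicate 1 and 5 without antibody replicate 3, where 6.22% and 6.56% were lower. With the muscle level as a covariate it was called for 1 (4.35%), near the 4.48% of all genes. The mean level of the type I interferon list was 8.02, 8.94 and 8.41 in antibody arrays, against 9.16, 8.61 and 9.26 in PBS ip arrays, so that antibody replicate 2 stood above PBS ip replicate 2. Stat2, a subunit of the factor that type I interferon activates, fell by 1.13 ± 0.23 (adjusted p = 0.00055), Xaf1 by 1.01 ± 0.28 and the RNA sensor gene Ifih1 by 0.60 ± 0.17. Bst2, which tethers budding viruses to the cell, fell by 0.93 ± 0.27 with overlap between groups. Against PBS pump and gavage, 17 of 23 fell, where 11.4% of all genes were lower.

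The genes that present peptides to CD8 T cells fell in every case measured. All 13 tested genes of MHC class I presentation fell, with a median of -1.001, and 13 of 13 also fell without PBS ip replicate 3 and against PBS pump and gavage. In these 3 comparisons 10.6%, 5.51% and 11.4% of all genes were lower. H2-K1, a class I heavy chain, had 10.57, 10.37 and 10.54 in antibody arrays, against 11.86, 11.62 and 11.98 in PBS ip arrays, and fell by 1.33 ± 0.17 (2.51-fold lower, adjusted p = 7.02e-07). Tap1 and Tap2, which form the peptide transporter, fell by 1.31 ± 0.19 and 1.16 ± 0.16. Within each group the Tap1 values lay close together, at 9.04, 9.01 and 9.02 in antibody arrays, against 10.42, 10.11 and 10.48 in PBS ip arrays.

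Ubd, a ubiquitin-like protein that marks others for the proteasome and that interferon gamma and tumour necrosis factor induce, had the most negative difference of all genes tested. It had 5.09, 5.72 and 5.002 in antibody arrays, against 11.62, 9.45 and 11.22 in PBS ip arrays and fell by 5.49 ± 0.53 (at least 45.1-fold lower, adjusted p = 5.58e-09). The PBS ip arrays were spread more widely than the antibody arrays, and the groups were far apart.

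MHC class II genes fell by less. Of 9 tested, 6 fell, with a median of -0.48, where 10.6% of all genes were lower. The fall was called for 4 of 9 without PBS ip replicate 3, 3 without PBS ip replicate 1 and 2 without antibody replicate 3. In these settings 5.51%, 6.22% and 6.56% of all genes were lower. With the muscle level as a covariate it was called for 2 (median -0.28), where 4.48% of all genes were lower. H2-Aa and H2-Ab1, the 2 chains of a class II molecule, fell by 0.36 ± 0.11 and 0.61 ± 0.14. Ctss, the protease that trims the class II invariant chain, had 11.33, 11.95 and 11.32 in antibody arrays, against 12.90, 11.97 and 12.91 in PBS ip arrays and fell by 1.06 ± 0.30 (adjusted p = 0.00918), but did not pass without PBS ip replicate 3 (adjusted p = 0.0705).

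Markers of other leukocytes did not move as a block. Of 18 macrophage and monocyte genes 1 rose and 3 fell, with a median of -0.02, and of 10 dendritic and Langerhans cell genes 3 rose and 3 fell, where 15.1% of all genes were higher and 10.6% lower. Without PBS ip replicate 3, 1 macrophage gene fell and 1 dendritic cell gene rose, where 5.51% of all genes were lower and 7.77% higher. The Fc receptor gene Fcgr4 had 6.18, 7.13 and 6.02 in antibody arrays, against 8.81, 6.85 and 8.60 in PBS ip arrays, and fell by 1.64 ± 0.34 with overlap between groups. Aif1 fell by 1.19 ± 0.37 and Fcgr1 by 0.43 ± 0.15, while the scavenger receptor gene Cd163 had 9.84, 10.58 and 10.05 in antibody arrays, against 8.07, 9.12 and 8.20 in PBS ip arrays and rose by 1.69 ± 0.34 (3.24-fold higher, adjusted p = 0.000321). Itgax (CD11c) fell by 1.31 ± 0.20, Batf3, a transcription factor of cross-presenting dendritic cells, by 0.95 ± 0.15 and Epcam by 0.84 ± 0.14.

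The lectin gene Cd209a had 9.10, 9.04 and 8.60 in antibody arrays, against 7.19, 7.36 and 6.19 in PBS ip arrays and rose by 1.998 ± 0.28 (3.99-fold higher, adjusted p = 4.06e-06). Its relatives Cd209b and Cd209d, named after their values were seen, rose by 2.93 ± 0.40 and 2.24 ± 0.32, and all 3 were also called without PBS ip replicate 3. So the lectin genes stood higher in the antibody skin where Itgax stood lower. Of 7 mast cell genes 0 passed, with Mcpt4 at 0.87 ± 0.36 and Cpa3 at 0.74 ± 0.34. In the B and plasma cell list 1 of 5 genes fell (Mzb1, -1.09 ± 0.29, with overlap), and 1 of 6 neutrophil genes did (Cxcr2, -0.48 ± 0.14, with overlap), where 10.6% of all genes were lower.

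Hair shaft levels overlapped between the groups, with an array of each on the other's side. The mean level of 11 hair shaft keratin genes was 6.78, 9.37 and 6.02 in antibody arrays, against 10.61, 7.26 and 10.03 in PBS ip arrays. Antibody replicate 2 was high and PBS ip replicate 2 was low, and 0 of 11 genes passed, at a median of -2.08. Krt31, a cortex keratin, had 6.52, 9.87 and 6.11 in antibody arrays, against 11.01, 7.33 and 10.61 in PBS ip arrays (difference -2.15 ± 1.11, adjusted p = 0.154), and Krt34 differed by -2.97 ± 1.36 (adjusted p = 0.104) with overlap too.

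None of the 10 keratin associated protein genes or the 10 inner root sheath genes passed either (medians -2.68 and -1.98), with Krtap11-1 at -3.14 ± 1.55 and Padi3, which modifies root sheath proteins, at -1.93 ± 0.96, both with overlap. The call turned on single arrays: 8 hair shaft genes were lower without PBS ip replicate 2 and 7 without antibody replicate 2. In these settings 14.2% and 10.1% of all genes were lower. Against PBS pump and gavage, 9 of 11 hair shaft genes were lower, where 11.4% of all genes were. The follicles' phase in the hair cycle is not given in the sources used here.

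Of 13 hair matrix and papilla genes 1 rose and 2 fell, where 15.1% of all genes were higher and 10.6% lower, and 0 passed without PBS ip replicate 3. Fgf7, a growth factor of the papilla, rose by 0.57 ± 0.20 with overlap, and Sostdc1 fell by 0.48 ± 0.18 with overlap, while the follicle transcription factor gene Foxn1 differed by -0.79 ± 0.37 (adjusted p = 0.111), also with overlap. Genes of the bulge, where follicle stem cells lie, were higher more often. Of 12 bulge and resting follicle genes 6 rose and 1 fell, where 15.1% of all genes were higher, and 5 rose without PBS ip replicate 3, where 7.77% were. The gene that fell, Sox9, overlapped between groups.

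Krt24 had 10.69, 9.30 and 9.61 in antibody arrays, against 7.78, 6.27 and 7.17 in PBS ip arrays, and rose by 2.79 ± 0.34 (6.93-fold higher, adjusted p = 3.71e-07). Fgf18, a growth factor known to hold follicles at rest, had 9.12, 8.45 and 6.99 in antibody arrays, against 6.42, 6.10 and 6.22 in PBS ip arrays and rose by 1.94 ± 0.51 (adjusted p = 0.00469). The stem cell keratin gene Krt15 rose by 0.75 ± 0.19 and the quiescence factor gene Nfatc1 by 0.69 ± 0.14. Krt24 and Krt15 thus stood higher in antibody replicate 2 too, the array with the high hair shaft level.

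Keratins of injured or fast-growing epidermis were lower. Of 14 tested injury keratin and alarm protein genes 9 fell and 0 rose, with a median of -1.45, where 10.6% of all genes were lower, and 4 of the 9 overlapped between groups. The fall was called for 6 without PBS ip replicate 3, where 5.51% of all genes were lower. Krt16 had 8.97, 10.30 and 7.37 in antibody arrays, against 12.01, 11.08 and 11.99 in PBS ip arrays and fell by 2.82 ± 0.62 (7.04-fold lower, adjusted p = 0.000958). Krt17 fell by 1.32 ± 0.23, the protease inhibitor gene Slpi by 1.51 ± 0.27, and Krt6a by 1.59 ± 0.46 with overlap between groups. Krt16, Krt17 and Krt6a are also expressed in the follicle's outer root sheath. Antibody replicate 3, with the lowest hair shaft level, had the lowest value of each. PBS ip replicate 2 had the lowest hair shaft level of its group (7.26) and the lowest Krt16. Its mean level of the injury keratin list was 9.93, beside 9.89 and 9.88 in replicates 1 and 3. Whether follicle content entered these falls was not tested. Without antibody replicate 3, 3 of the 14 genes were called lower, and with the muscle level as a covariate 5 were. In these settings 6.56% and 4.48% of all genes were lower.

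Differentiation genes of the epidermis moved little. Of 16 tested, 1 rose and 3 fell, where 15.1% of all genes were higher and 10.6% lower. Without PBS ip replicate 3, 1 fell, where 5.51% of all genes were lower. The desquamation protease gene Klk7 fell by 0.95 ± 0.17 and was lower without PBS ip replicate 3 as well (-0.94 ± 0.19), while Krt5 and Krt14 fell by 0.33 ± 0.12 and 0.37 ± 0.13, and the envelope gene Lor rose by 0.37 ± 0.13 with overlap. Of 9 sebaceous gland genes 3 rose, where 15.1% of all genes were higher. They were the lipid desaturase genes Scd1 (0.89 ± 0.16) and Scd3 (2.67 ± 0.55) and Mgst1 (0.57 ± 0.09). Of 9 melanocyte genes 0 passed, with Dct at 1.36 ± 0.52 (adjusted p = 0.0508).

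**Figure D2:**
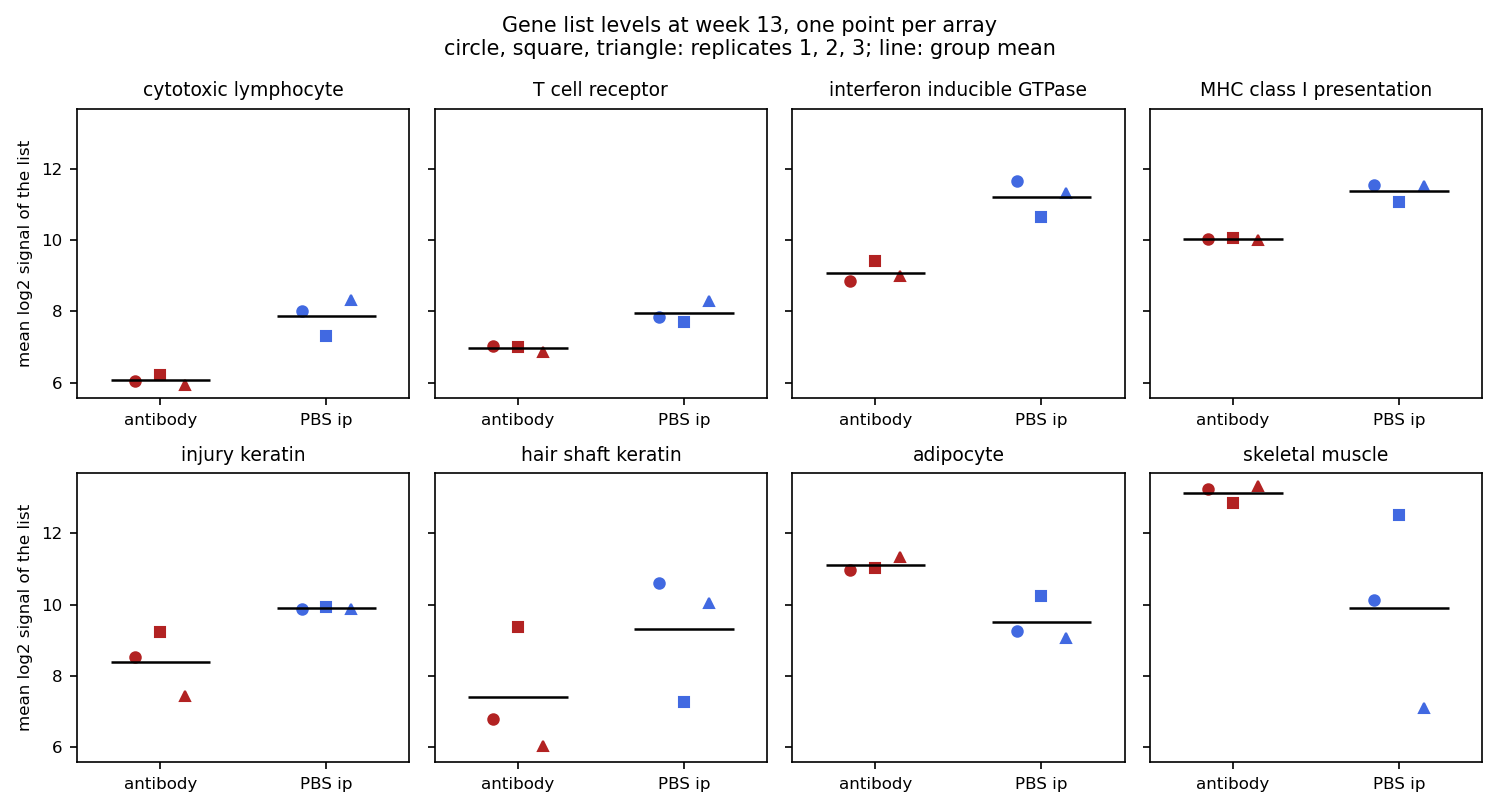
Mean log2 signal of 8 gene lists at week 13, with 1 point per array (circle, square and triangle for replicates 1, 2 and 3), antibody in red on the left and PBS ip in blue on the right, and a line at each group mean. Cytotoxic lymphocyte, T cell receptor, GTPase, MHC class I and injury keratin levels are lower in every antibody array and adipocyte levels are higher, the hair shaft levels overlap, and PBS ip replicate 3 has the lowest muscle level at 7.11.

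The largest rises belonged to skeletal muscle, and their calls depended on single arrays. Of 18 muscle genes 17 rose, with a median of 3.20, where 15.1% of all genes were higher. Without PBS ip replicate 3, 0 did, at a median of 1.95, and against PBS pump and gavage 0 did, at a median of 1.79. The count was 5 without antibody replicate 3, 8 without antibody replicate 1 and 9 without PBS ip replicate 1, with medians of 3.08, 3.16 and 3.31. In these settings 9.59%, 11% and 8.68% of all genes were higher. The fast myosin gene Myh4 had 14.21, 14.000 and 14.23 in antibody arrays, against 11.89, 12.45 and 6.59 in PBS ip arrays, and Myh2 had 12.66, 12.19 and 12.65 in antibody arrays, against 7.11, 11.99 and 6.42 in PBS ip arrays. PBS ip replicate 3 was the lowest array for both, and for Myh2 replicate 1 was nearly as low. The rises were 3.84 ± 1.27 and 3.996 ± 1.13, and without that array the differences were 1.98 ± 1.26 (adjusted p = 0.31) and 2.95 ± 1.22 (adjusted p = 0.101).

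The calcium pump gene Atp2a1 rose by 3.15 ± 0.90, and Ckm, the muscle creatine kinase, by 3.34 ± 0.997 and Actn3 by 3.41 ± 1.01, and none of them passed without that array. The 10 largest rises over all genes were Myh2, Neb, Myh4, Myot, Ttn, Tnnt3, Pvalb, Mybpc2, Smpx and Ampd1, all expressed in striated muscle. They rose by 3.54 to 3.996, and 0 of the 10 passed without PBS ip replicate 3.

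Fat cell genes rose in step, and their calls did not rest on that array. All 12 tested adipocyte genes rose, with a median of 1.47, where 15.1% of all genes were higher. Without PBS ip replicate 3, 11 rose (median 1.31), where 7.77% of all genes were higher. Against PBS pump and gavage 11 rose, where 20.5% of all genes were higher. The adipocyte level was 10.97, 11.03 and 11.33 in antibody arrays, against 9.26, 10.25 and 9.06 in PBS ip arrays, and PBS ip replicate 3 was again the lowest.

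Adipoq, the adiponectin gene, had 12.26, 12.38 and 12.85 in antibody arrays, against 9.69, 11.15 and 9.76 in PBS ip arrays and rose by 2.30 ± 0.27 (4.91-fold higher, adjusted p = 1.8e-07). The fat cell hormone gene Retn had 11.65, 11.76 and 12.13 in antibody arrays, against 9.17, 10.45 and 8.86 in PBS ip arrays and rose by 2.35 ± 0.29 (5.11-fold higher). Pparg, the transcription factor that directs fat cell formation, rose by 1.60 ± 0.20, and the fatty acid carrier gene Fabp4 by 1.12 ± 0.11. Muscle and fat lie beneath the dermis, and muscle and adipocyte levels ran the same way across the 6 arrays in part: both were lowest in PBS ip replicate 3 and highest in antibody replicate 3. With the muscle level as a covariate, 11 of 12 adipocyte genes were called higher, at a median of 1.23, where 7.12% of all genes were.

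Among genes still called without PBS ip replicate 3, a choice made after the values were seen, the largest rises were those of Thrsp (3.22 ± 0.73), Dhrs7c (2.95 ± 0.71), Cd209b (2.93 ± 0.40), Aldh1a7 (2.88 ± 0.44), Smyd1 (2.84 ± 0.66), Krt24 (2.79 ± 0.34), Amy1 (2.75 ± 0.32), Zbtb16 (2.72 ± 0.41), Slc26a7 (2.71 ± 0.45) and Cyp2e1 (2.71 ± 0.55). Thrsp is known for lipid synthesis in fat. It had 10.38, 10.88 and 11.30 in antibody arrays, against 7.58, 8.59 and 6.73 in PBS ip arrays, so that PBS ip replicate 3 was again the lowest, and without that array it differed by 2.77 ± 0.81 (adjusted p = 0.0205).

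Dermal and vascular genes gave mixed results. Of 16 dermal matrix genes 2 rose and 1 fell, near the shares of all genes (15.1% higher and 10.6% lower), with the proteoglycan genes Dcn at 0.63 ± 0.14 and Lum at 0.81 ± 0.26, and Timp1, an inhibitor of matrix proteases, at -1.50 ± 0.47. Of these Dcn was also called without PBS ip replicate 3. Of 12 endothelial genes 6 rose and 3 fell, against the same shares of all genes. Without PBS ip replicate 1 the rise was called for 2, where 8.68% of all genes were higher. Flt1, a receptor of vascular endothelial growth factor, had 8.97, 8.82 and 8.54 in antibody arrays, against 9.91, 9.82 and 9.87 in PBS ip arrays and fell by 1.09 ± 0.14 (adjusted p = 1.09e-06), and the leukocyte adhesion gene Icam1 fell by 0.89 ± 0.17. The junction gene Esam rose by 0.86 ± 0.18 and the endomucin gene Emcn by 0.83 ± 0.21.

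Of 17 cell division genes 1 fell (the mitotic kinase gene Plk1, -0.75 ± 0.21), although all 17 differences were negative, at a median of -0.55. Of 3 erythrocyte genes 1 fell (Slc4a1, with overlap), and of 11 integrated stress response genes 2 fell (Sesn2, and Cebpb with overlap). Beside these counts, 10.6% of all genes were called lower. Of 16 circadian clock genes 6 rose, where 15.1% of all genes were higher, and 3 of the 6 overlapped between groups. The rise was called for 4 without PBS ip replicate 3, where 7.77% of all genes were higher. It was called for 10 without PBS ip replicate 2, where 17.8% were. Per2, a repressor within the clock, had 7.77, 7.90 and 8.29 in antibody arrays, against 6.41, 7.31 and 6.32 in PBS ip arrays and rose by 1.31 ± 0.34 (adjusted p = 0.00472). Cry2 rose by 0.78 ± 0.14, and Nr1d1 and Nr1d2 rose by 1.07 ± 0.23 and 0.72 ± 0.21 with overlap between groups. The hour of sampling is not given in the sources used here.

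Of 11 glucocorticoid and metallothionein genes 4 rose and 0 fell, where 15.1% of all genes were higher, and 3 rose without PBS ip replicate 3, where 7.77% were. Fkbp5, a chaperone of the glucocorticoid receptor that the hormone itself induces, had 11.61, 11.56 and 10.005 in antibody arrays, against 9.51, 9.43 and 9.38 in PBS ip arrays and rose by 1.62 ± 0.32 (3.07-fold higher, adjusted p = 0.000319). Zbtb16 had 10.36, 10.02 and 9.13 in antibody arrays, against 6.95, 7.78 and 6.63 in PBS ip arrays and rose by 2.72 ± 0.41 (6.58-fold higher, adjusted p = 9.39e-06). Antibody replicate 3 was the lowest of its group for both and still above every PBS ip array. Tsc22d3 and Klf9 rose by 1.24 ± 0.44 and 0.90 ± 0.24, and Tsc22d3 did not pass without PBS ip replicate 3 (adjusted p = 0.0925).

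**Figure D3:**
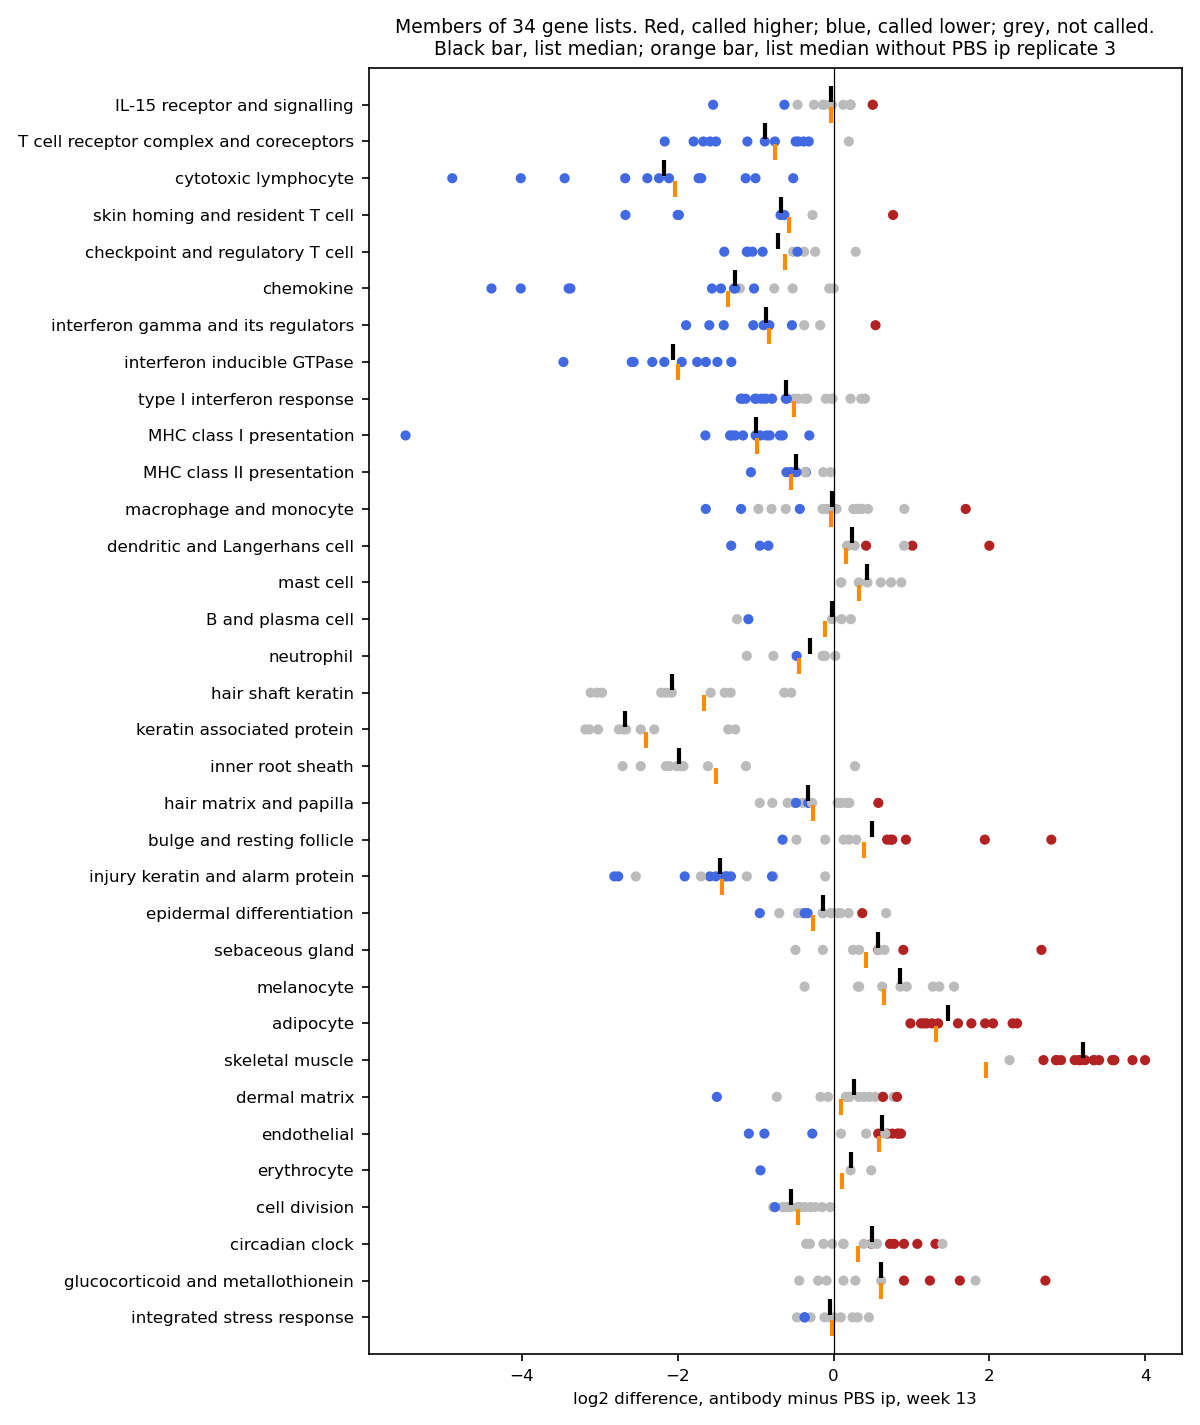
Log2 difference (antibody minus PBS ip, week 13) of every tested member of 34 gene lists, 1 point per gene, red where called higher, blue where called lower and grey where not called. A black bar marks each list's median and an orange bar the median without PBS ip replicate 3, which shifts most for skeletal muscle (3.20 with it and 1.95 without it).

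The 10 largest falls over all genes were Ubd, Gzma, Cxcl9, AA467197, Ccl5, Wfdc18, 2610528A11Rik, Klk6, Mmp12 and Ms4a4b, between 5.49 and 3.54 log2 units down, and all 10 also passed without PBS ip replicate 3. Those not yet described are in part epithelial and in part of leukocytes. AA467197 had 6.77, 7.20 and 5.53 in antibody arrays, against 10.82, 10.13 and 11.01 in PBS ip arrays and fell by 4.16 ± 0.44 (adjusted p = 2.29e-08). The skin protease gene Klk6 had 8.42, 9.19 and 7.16 in antibody arrays, against 12.51, 11.07 and 12.06 in PBS ip arrays and fell by 3.62 ± 0.48 (adjusted p = 1.14e-06).

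Wfdc18 fell by 3.79 ± 0.90 and 2610528A11Rik by 3.70 ± 0.55. Mmp12, the macrophage elastase, had 5.68, 7.58 and 5.49 in antibody arrays, against 9.90, 8.80 and 10.76 in PBS ip arrays and fell by 3.57 ± 0.86 (adjusted p = 0.00225), with antibody replicate 2 clearly above the other antibody arrays. Ms4a4b, a membrane protein of T cells, had 6.22, 6.58 and 6.19 in antibody arrays, against 9.65, 9.65 and 10.32 in PBS ip arrays and fell by 3.54 ± 0.51 (adjusted p = 4.26e-06).

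The antibody was also compared with PBS ip at week 5, where 10 genes were called, all lower (0.0733%), and 549 (4.02%) had an unadjusted p of at most 0.05. The difference between the antibody effect at week 13 and that at week 5 was called for 1453 genes, with 898 more positive at week 13 (6.58%) and 555 more negative (4.07%). Leaving out PBS ip replicate 3 gave 624 and leaving out PBS ip replicate 2 gave 2622, with 717 without PBS ip replicate 1 and 764 without antibody replicate 3 of week 13 and 912 without antibody replicate 2 of week 5. After quantile normalization between all arrays the split was 681 more positive and 706 more negative. The arrays of the 2 weeks were not shared, and week and any batch of arrays cannot be told apart.

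Some killer cell and antigen presentation genes were lower at week 13 by more than at week 5. The difference was called more negative for 7 of 12 cytotoxic lymphocyte genes, 4 of 13 T cell genes, 6 of 14 chemokine genes and 5 of 13 MHC class I genes, where 4.07% of all genes were more negative. It was called for 3 of 12, 2 of 13, 4 of 14 and 2 of 13 of them without PBS ip replicate 3 of week 13, where 1.75% of all genes were. The 10 genes called lower at week 5 were 4 of 12 cytotoxic lymphocyte genes (Nkg7, Ctsw, Klrd1 and Tnfsf10), 3 of 13 T cell genes (Cd3g, Cd247 and Cd7), 2 of 7 skin T cell genes (Cxcr6 and Trgv4) and Ddx60 of the type I interferon list. Klrd1 differed by -2.68 ± 0.28 at week 13 and by -1.31 ± 0.26 at week 5 (adjusted p = 0.0217), and Cd3g by -1.67 ± 0.25 at week 13 and by -1.30 ± 0.24 at week 5 (adjusted p = 0.0145). Gzma differed by -4.89 ± 0.46 at week 13 and by -0.23 ± 0.43 at week 5, and Ubd by -5.49 ± 0.53 at week 13 and by -0.75 ± 0.50 at week 5. Gzmb differed by -3.45 ± 0.40 at week 13 and by -0.08 ± 0.38 at week 5, Cd8a by -2.17 ± 0.20 and 0.07 ± 0.19, and Il2rb by -1.55 ± 0.15 and -0.35 ± 0.14. Of the other genes with the largest differences between weeks, AA467197, 2610528A11Rik and Mmp12 were lower under antibody at week 13, with week 5 differences of -0.23 ± 0.41, 0.09 ± 0.52 and -0.07 ± 0.80. In the PBS ip arrays of week 5, Mmp12 had 5.25, 6.32, 5.30 and 5.42, and Cxcl10 had 8.14, 8.26, 7.46 and 8.19. For both genes these values were below every PBS ip array of week 13, so that less signal could fall at week 5. Whether this entered the difference between weeks was not tested. The PBS ip levels of week 5 are not given here for Gzma, Ubd, Gzmb, Cd8a and Il2rb, and the same limit may hold for them.

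The GTPase and type I interferon lists held no gene called for a difference between weeks. Of the 10 interferon-inducible GTPase genes and 23 type I interferon response genes, 0 passed that test, and the medians were -2.06 and -0.61 at week 13 and -1.76 and -0.69 at week 5. Igtp differed by -2.57 ± 0.63 at week 13 and by -2.10 ± 0.59 at week 5, and Iigp1 by -2.59 ± 0.73 and -3.16 ± 0.69. Of these the week 5 differences did not pass (adjusted p = 0.295 and 0.0527). Cxcl9 differed by -4.39 ± 0.74 at week 13 and by -2.40 ± 0.69 at week 5, a difference between weeks that did not pass (adjusted p = 0.194).

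Among genes that rose, 10 of 12 adipocyte genes and 5 of 12 bulge genes were more positive at week 13, where 6.58% of all genes were. The counts were 10 and 3 without PBS ip replicate 3 of week 13, where 2.82% of all genes were. The 5 largest called differences in this direction were those of Akr1c14, Ampd1, Pgr, Aqp4 and Lyve1. The steroid-metabolizing enzyme gene Akr1c14 differed by 2.64 ± 0.73 at week 13 and by -1.36 ± 0.68 at week 5, and the progesterone receptor gene Pgr by 2.35 ± 0.70 and -1.48 ± 0.66. The lymphatic receptor gene Lyve1 differed by 2.23 ± 0.62 and -1.20 ± 0.58, and the water channel gene Aqp4 by 3.16 ± 0.77 and -0.49 ± 0.72. At week 13 these 4 genes and Ampd1 did not pass without PBS ip replicate 3, with adjusted p between 0.0531 and 0.096.

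**Figure D4:**
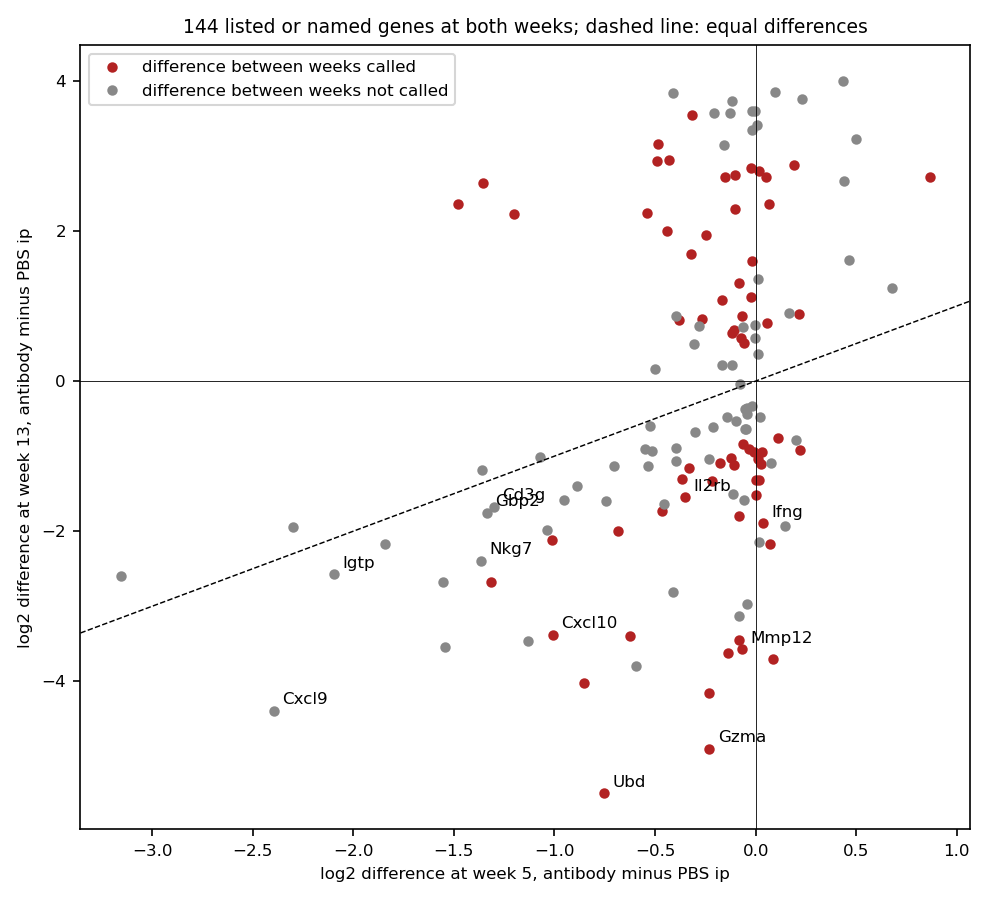
Log2 difference (antibody minus PBS ip) of 144 listed or named genes at week 13 (vertical axis) against week 5 (horizontal axis), red where the difference between weeks was called and grey where it was not, with a dashed line at equal differences. Gzma and Mmp12 lie far below the line near 0 at week 5, Ubd lies far below it at -0.75, and Igtp, Gbp2 and Cd3g lie near it.

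Both JAK inhibitors were set against their own vehicles at week 13, in arrays outside the antibody and PBS ip groups. These arrays did enter the pooled spread of the antibody comparison, and the PBS pump and gavage arrays also served as its second control. For jak3i against PBS pump 2182 genes were called (16.0%), of which 1319 were higher (9.66%) and 863 lower (6.32%), and for jak12i against PBS gavage 2987 (21.9%), of which 1580 were higher (11.6%) and 1407 lower (10.3%). All 12 cytotoxic lymphocyte genes fell under antibody and under jak3i, and 11 fell under jak12i. All 10 GTPase genes and all 13 MHC class I genes fell under each of the 3 agents.

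The test of the antibody effect minus the jak3i effect was called for 1 gene (0.00733%), Ifi27l2a (1.95, adjusted p = 0.0347), with 940 genes (6.89%) at an unadjusted p of at most 0.05. This interferon-induced gene had 12.25, 12.67 and 12.37 in antibody arrays, against 12.62, 11.75 and 12.43 in PBS ip arrays, a difference of 0.16 ± 0.25, and differed by -1.79 ± 0.25 under jak3i. Of the 23 type I interferon response genes, 10 fell under antibody, 23 under jak3i and 17 under jak12i, with medians of -0.61, -2.04 and -1.41, but none of the 23 was called for a difference between agents. Xaf1, for example, differed by -1.01 ± 0.28 under antibody, by -2.32 ± 0.28 under jak3i and by -1.44 ± 0.28 under jak12i.

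The antibody effect minus the jak12i effect was called for 1 gene (0.00733%), Arnt2 (-1.07, adjusted p = 0.0144), with 848 genes (6.21%) at an unadjusted p of at most 0.05. Arnt2, a partner subunit of basic helix-loop-helix factors, had 6.62, 6.74 and 6.37 in antibody arrays, against 7.14, 7.73 and 7.56 in PBS ip arrays and fell by 0.90 ± 0.13 under antibody, and differed by 0.17 ± 0.13 under jak12i. This fall was not called against PBS pump and gavage (-0.25, adjusted p = 0.0762). In muscle, 17 of 18 genes were higher under antibody (0 without PBS ip replicate 3), 1 under jak3i and 0 under jak12i, with medians of 3.20, 2.36 and 0.52, and none of the 18 was called for a difference between agents. The glucocorticoid responsive gene Fkbp5 differed by 1.62 ± 0.32 under antibody, 0.52 ± 0.32 under jak3i and 0.34 ± 0.32 under jak12i, and a difference between agents did not pass (adjusted p = 0.572 and 0.687). These tests of a difference between agents carry the spread of 4 groups of 3 arrays, and a p above the threshold does not show that the agents act alike.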

How the data were processed

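The deposited values are log2 signals of 45101 probe sets on 48 arrays. According to the submitters' processing notes they were produced by RMA, version not given. RMA is known to correct background and quantile normalize, so that differences are relative to the whole array. Whether all arrays were normalized together is not given in the sources used here. The 75th percentile of the arrays lay between 8.47 and 8.68 at week 5, 8.15 and 8.35 at week 6, and 8.68 and 8.78 at week 13. The arrays thus did not share the same distribution across weeks, and whether the weeks were normalized apart was not tested. Per the labels, RNA was amplified by in vitro transcription and labelled with biotin.

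Groups came from titles. One week 5 array, PBS ip by title (replicate 1) but IL15 by treatment label, stayed in no group and was tried both ways. Probe sets were named through GEO's platform annotation, with 34958 naming 1 symbol, 932 several and 9211 none, and symbols were updated through RefSeq for 34754. The probe set of highest mean stood for each gene, and 13650 of 18194 genes above the table median of 6.70 in at least 3 of 47 arrays were tested. Of 53 called named genes with several probe sets, 8 (Stat5b, Lor, Mgst1, Ttn, Fkbp5, Tsc22d3, Thrsp and Smyd1) also had one of opposite sign, by at most 0.28.

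A linear model with a mean for each of 13 groups was fitted to 47 arrays (limma 3.58.1, R 4.3.3), with Benjamini-Hochberg adjustment within each comparison. The p-values reflect only how much arrays vary within groups. The spread of a gene was pooled over all 13 groups and not taken from the antibody and PBS ip arrays alone. Same-numbered antibody and PBS ip arrays deviated with correlations of -0.22, -0.49 and -0.25, so the numbers gave no pairing. The fold of a gene near background is a lower bound.

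The comparison, the 34 gene lists (401 of 485 listed genes tested) and the genes named were chosen with earlier results of these data known. The rule names panel genes, the 10 largest rises and falls called without overlap, up to 4 members of smallest p per list and the 5 largest called differences in each direction between weeks or agents. Jak3 was measured but below the filter, and 1 other panel gene is not analysed here. On simulated data with the spread of these arrays, 67.2%, 86.6% and 100% of genes changed 1.5, 2 and 4-fold were found for the antibody comparison over 13650 genes, and 3.98% of calls were false. The simulation drew independent noise for each gene, with the same spread in every group, and changed few genes. In the data 25.7% of genes were called and arrays of a group differed in muscle content, so these rates need not hold for them. Alternatives changed the filter, probe set rule, normalization, covariates, controls and arrays.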

Additional observations from a re-analysis of the deposited data

Results flagged for a closer look

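The antibody effect (antibody minus PBS ip) at week 13 differed from that at week 5 by the test of the difference itself for 1453 genes, and the named ones follow with the week 13 effect minus the week 5 effect in log2 units. More negative at week 13 were Ubd (-4.74, adjusted p = 0.000115), Gzma (-4.66, adjusted p = 1.78e-05), AA467197 (-3.93, adjusted p = 0.00011), 2610528A11Rik (-3.79, adjusted p = 0.00147), Mmp12 (-3.51, adjusted p = 0.0479) and Gzmb (-3.37, adjusted p = 0.000184). The chemokine genes Cxcl11 (-2.78, adjusted p = 0.0046) and Cxcl10 (-2.37, adjusted p = 0.0148) were too, with Cd8a (-2.24, adjusted p = 6.79e-06), Ifng (-1.93, adjusted p = 0.000557), Klrk1 (-1.27, adjusted p = 0.0166), Il2rb (-1.19, adjusted p = 0.000264) and H2-K1 (-1.11, adjusted p = 0.00212). For Mmp12 and Cxcl10 the PBS ip arrays of week 5 were below all those of week 13, which left less signal to fall. Such levels are not given here for the other genes that were more negative, and the same limit may hold for them.

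More positive at week 13 were Akr1c14 (3.999, adjusted p = 0.00866), Ampd1 (3.86, adjusted p = 0.0418), Pgr (3.83, adjusted p = 0.00938), Aqp4 (3.65, adjusted p = 0.0217) and Lyve1 (3.43, adjusted p = 0.00835). At week 13 the antibody effect minus that of jak3i was called for 1 gene (Ifi27l2a, 1.95, adjusted p = 0.0347) and minus that of jak12i for 1 gene (Arnt2, -1.07, adjusted p = 0.0144).

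Among the 4 PBS ip arrays of week 5, 1 array lay far from the others for 5 of 33 genes tested. The rate of about 1 in 20 that holds for a gene chosen beforehand does not apply here. Some of these genes were chosen by differences between weeks that the same arrays entered, and all genes share the arrays. The gap over the range was 0.938 for Il15ra, 0.905 for Ampd1, 0.851 for Cxcl10, 0.844 for Mmp12 and 0.835 for Pgr. The far array was replicate 2 for Il15ra, Ampd1 and Pgr, replicate 3 for Mmp12 and replicate 4 for Cxcl10.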

How the results depend on the processing

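The comparison called 3512 genes. Leaving out each array in turn gave 1812 (without PBS ip replicate 3) to 4377 (without PBS ip replicate 2), with 2034 without PBS ip replicate 1 and 2205 without antibody replicate 3. The count was 816 on the 6 arrays alone, where the fit has fewer arrays to estimate spread, 1583 with the skeletal muscle list as a covariate and 6352 with array weights. For the difference between weeks, 1453 genes became 624 (without PBS ip replicate 3) to 2622 (without PBS ip replicate 2), with 912 without week 5 antibody replicate 2, and became 535 with the muscle covariate, 929 with the hair shaft covariate and 5211 with array weights. The difference from jak3i went to 0 to 88 genes on leaving out an array, 526 with array weights, 2 with no filter, 2 with the mean of all probe sets and 3 with the replicate block. The difference from jak12i went to 0 to 69 genes on leaving out an array, 543 with array weights, 2 with the replicate block, and 0 with the stricter filter (24 arrays), the mean of all probe sets, the probe set of largest interquartile range, quantile normalization or the muscle covariate. Both single calls thus depended on the settings. With the replicate block the antibody comparison called 3436 genes, and the numbers do not pair the arrays. The cause of these shifts was not tested.

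Of the results for 144 named genes, 13 reversed sign, 5 of them (Ttn, Neb, Pvalb, Smpx and Myot) from among the largest rises, each with the muscle covariate. By the probe set of largest interquartile range Jak1 was -0.069 and Lor -0.0099. With array weights Il15ra was 0.030 and Ifi27l2a -0.14. On leaving out an array, Il15ra ranged between -0.11 (without PBS ip replicate 1) and 0.025 (without PBS ip replicate 2), and Ifi27l2a between 0.34 and -0.10 for the same arrays. With the muscle covariate Il15ra was 0.0052, Ttn -0.015, Neb -0.13, Pvalb -0.058, Smpx -0.29 and Myot -0.24, and with the hair shaft covariate Krt31 was 4.17e-05. A covariate takes out what follows its level, and Pvalb and Krt31 belong to the lists that formed these covariates. Small values of muscle genes and of Krt31 are therefore built into these settings and do not test their differences. Leaving out 1 array left 740 gene results on the same side of the threshold, while 109 no longer passed and 13 newly passed. Over the other settings 1903 stayed, 179 no longer passed and 34 newly passed. The list counts, the muscle covariate's among them, were added after the data were seen. Signals near background limit the falls of Gzma, Ubd, Ifng, Klrk1 and Cd8b1.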
